A study of Mus musculus with 8 samples.

Results

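Gene expression was compared between precursors of regulatory T cells (preTreg) from Nr4a-TKO mice and preTreg from Foxp3-KO mice, on the 4 arrays whose labels name these groups out of the 8 arrays of the series. The 2 Nr4a-TKO samples were CD4 single-positive thymocytes gated on high CD25, high GITR and high Nr4a3. The 2 Foxp3-KO samples were CD4 single-positive thymocytes gated on high CD25 and on a Foxp3 reporter. WT Treg, CD4 single-positive with Foxp3, and WT Tconv, CD4 single-positive with low CD25, gave 2 samples each and are shown as a frame. All cells were lysed fresh from mouse thymus without culture, and 10 ng of RNA was labelled for each one-colour array. The alleles, the deleted parts of the genes, any Cre, the strain, the age and the sex of the mice, the number of mice per sample and the way Nr4a3 or the Foxp3 reporter was read are not given in the sources used. Replicates are called biological in the design, and p-values measure only the spread between these samples. No wild-type precursors were part of the design. The genotype and the sort gate changed together, so in this comparison they cannot be told apart.

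The Nr4a proteins (Nr4a1, Nr4a2 and Nr4a3) are orphan nuclear receptors whose genes are switched on rapidly by T cell receptor signalling. Foxp3 is the transcription factor that defines regulatory T cells. In the thymus, cells that bind self antigen strongly raise CD25, the high-affinity IL-2 receptor chain, and GITR, and cytokines that signal through STAT5 then lead some of them to Foxp3. Nr4a receptors bind the Foxp3 locus and take part in this step, and they also take part in the death of self-reactive thymocytes. Setting the 2 groups side by side asks how precursors labelled as lacking Nr4a differ from precursors labelled as lacking Foxp3.

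Per array, 47.7% to 52.1% of the probes passed the background flag. Levels are log2 signals relative to the 75th percentile of each array, which is 0. Replicates correlated across the 13155 genes tested at r = 0.991 in Nr4a-TKO and 0.977 in Foxp3-KO, a value over genes, which are not independent. Replicates spread by 0.27 log2 units in Nr4a-TKO and 0.46 in Foxp3-KO, against 0.29 in WT Treg and 0.18 in WT Tconv. Foxp3-KO replicate 1 lay closer to Nr4a-TKO than replicate 2 did. The leading principal component held 60.2% of the variance, and on it Nr4a-TKO lay at 93.0 and 74.9, Foxp3-KO at 21.1 and -29.4, WT Treg at 4.39 and -6.87, and WT Tconv at -78.9 and -78.2. The 8 arrays shared 1 slide, Nr4a-TKO and WT Tconv in one row of it and Foxp3-KO with WT Treg in the other, so slide row and group cannot be told apart here.

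T cell markers were bright in both groups. All 10 on the list, among them Cd3d (7.31 and 7.47 in Nr4a-TKO, against 7.61 and 7.59 in Foxp3-KO) and Cd4 (5.08 and 5.11 in Nr4a-TKO, against 5.22 and 5.44 in Foxp3-KO), were above background on all 4 arrays. Their summed log2 signal was 10.4 and 10.4 in Nr4a-TKO and 10.4 and 10.6 in Foxp3-KO. In bulk samples, fewer cells of a type and less RNA per cell cannot be told apart. Sums of B cell and myeloid markers differed between single arrays. The summed signal of 12 B cell markers was 6.27 and 4.39 in Nr4a-TKO, against 5.38 and 3.22 in Foxp3-KO, 3.70 and 3.40 in WT Treg and 1.30 and 1.42 in WT Tconv. It was thus higher on replicate 1 than on replicate 2 in both precursor groups, and the groups overlapped. The sum of 23 myeloid and dendritic cell markers behaved alike, with 9.22 and 8.62 in Nr4a-TKO, against 8.75 and 8.08 in Foxp3-KO, 7.96 and 7.17 in WT Treg and 5.97 and 5.98 in WT Tconv. Siglech was left out of that sum after its values were seen, because its probe was evenly bright on all arrays. Of 10 tested B cell markers 0 were called in limma, and of 22 tested myeloid markers 0 were called higher and 1, Clec9a, lower. Of all genes, 18.9% were called higher and 16.1% lower. The median difference (log2, Nr4a-TKO minus Foxp3-KO) was 1.08 for the B cell markers and 0.55 for the myeloid markers. Without Foxp3-KO replicate 1 these medians were 1.78 and 0.97, and without its replicate 2 they were 0.44 and -0.04. Without Nr4a-TKO replicate 1 they were 0.36 and 0.16, and without its replicate 2 they were 1.98 and 0.85.

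NK receptor and granzyme genes differed between the Foxp3-KO arrays. The sum of 14 markers of innate-like T cells and NK cells was 6.29 and 6.23 in Nr4a-TKO, where it was carried by Id2 (5.99 and 5.99). It was 6.16 and 4.17 in Foxp3-KO, 3.53 and 3.35 in WT Treg and 5.67 and 5.68 in WT Tconv. In Foxp3-KO, 9 of the 12 tested markers were more than 1 log2 unit higher on replicate 1, while Zbtb16, given below, was higher on replicate 2. Within Foxp3-KO the NK receptor genes Klrd1 (2.67 and -0.17), Klrc1 (1.91 and -3.18) and Klrb1c (1.69 and -1.44) and the granzyme genes Gzma (5.28 and 1.83) and Gzmc (4.03 and -2.49) had their higher level on replicate 1. Nr4a-TKO had Klrd1 at -0.31 and -0.07, Klrc1 at -2.80 and -2.57 and Gzmc at -0.08 and 0.93. Epithelial and stromal markers were mostly dim (6 of 14 undetected on all 4 arrays), and so were red cell markers (3 of 7). Of 5 tested epithelial and stromal markers 2 were called higher. Krt18, a keratin gene, was at 0.01 and 0.17 in Nr4a-TKO, against -1.54 and -1.17 in Foxp3-KO (1.44 ± 0.14, adjusted p = 0.00235). Col1a2, a fibrillar collagen gene above background on 1 Foxp3-KO array, was at -0.72 and -1.08 in Nr4a-TKO, against -3.27 and -4.05 in Foxp3-KO (adjusted p = 0.00271). Both kept their call with any of the 4 arrays left out. Of 6 tested granulocyte markers 1 (16.7%) was called higher and 1 (16.7%) lower, near the 18.9% and 16.1% of all genes. The higher one, the lactoferrin gene Ltf, was undetected in Foxp3-KO, entered the test through Nr4a-TKO alone and was at least 5.04-fold higher. Ltf lost its call without Nr4a-TKO replicate 1. Of 12 tested innate-like and NK markers 1 was called higher and 3 lower, and 8 were called lower without Foxp3-KO replicate 2. The part of these other cells in the results below was not tested.

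**Figure D1:**
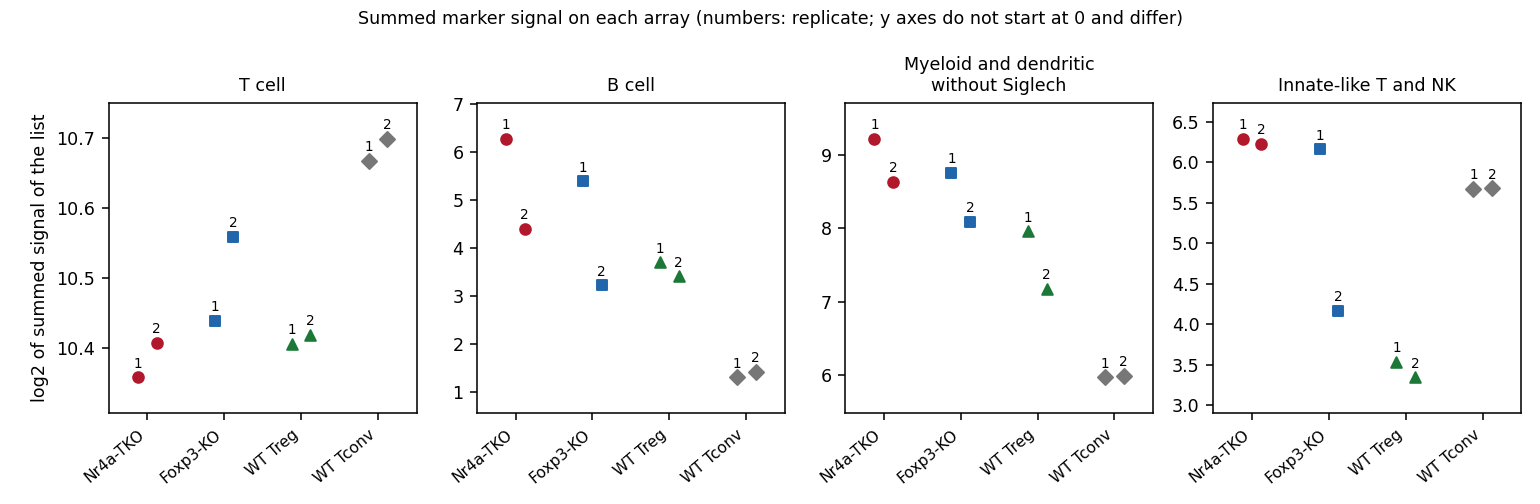
Summed signal (log2) of 4 marker lists on each of the 8 arrays, with Nr4a-TKO at the left, then Foxp3-KO, WT Treg and WT Tconv, and the replicate number beside each point. B cell sums run from 6.27 and 4.39 in Nr4a-TKO and 5.38 and 3.22 in Foxp3-KO to 1.30 and 1.42 in WT Tconv, and replicate 1 is the higher one in both precursor groups.

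Nr4a-TKO replicate 2 stood apart in sex-linked transcripts. Xist, which coats the inactive X chromosome in female cells, was at -6.39 and 1.31 in Nr4a-TKO, against -5.59 and -5.94 in Foxp3-KO, and was well above background on Nr4a-TKO replicate 2 alone of the 8 arrays. The Y-linked genes Ddx3y (2.37 and 1.25 in Nr4a-TKO, against 2.51 and 2.76 in Foxp3-KO) and Eif2s3y (3.48 and 2.31 in Nr4a-TKO, against 3.62 and 3.63 in Foxp3-KO) were present on all arrays and lowest on the same one. Counts are therefore also given with single arrays left out.

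Transcripts of the genes named in the labels were measured in both groups. Foxp3 was at 3.80 and 3.25 in Nr4a-TKO, against 1.97 and 1.74 in Foxp3-KO, with 5.0 and 4.72 in WT Treg and -3.40 and -3.79 in WT Tconv. It was 3.18-fold higher in Nr4a-TKO than in Foxp3-KO (1.67 ± 0.23, adjusted p = 0.0062), and both groups lay between WT Treg and WT Tconv. Nr4a2 was at 3.72 and 3.87 in Nr4a-TKO, against 1.86 and 1.26 in Foxp3-KO, so the libraries labelled Nr4a-TKO had more of it (2.24 ± 0.20, adjusted p = 0.00203), with no overlap. Nr4a1 was at 7.73 and 7.96 in Nr4a-TKO, against 7.17 and 7.60 in Foxp3-KO (0.46 ± 0.19, adjusted p = 0.108), and Nr4a3 at -0.42 and -0.12 in Nr4a-TKO, against -0.88 and -0.33 in Foxp3-KO (0.34 ± 0.45, adjusted p = 0.59), and neither passed the test. The probes may lie outside the deleted parts of these genes, so they check no genotype. Of the gate genes, Il2ra, which encodes CD25, was at 6.20 and 5.69 in Nr4a-TKO, against 4.24 and 3.73 in Foxp3-KO. It was higher in Nr4a-TKO (1.97 ± 0.23, adjusted p = 0.00399) although both gates asked for high CD25. Tnfrsf18, which encodes GITR and was in the Nr4a-TKO gate alone, was at 6.74 and 6.50 in Nr4a-TKO, against 6.57 and 6.39 in Foxp3-KO and did not pass (0.14 ± 0.11, adjusted p = 0.353).

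Across all genes the groups differed widely. A difference is Nr4a-TKO minus Foxp3-KO on the log2 scale ± SE from limma, fitted over all 8 arrays, and a gene is called at a Benjamini-Hochberg adjusted p under 0.05. Of 13155 genes, 2492 (18.9%) were called higher in Nr4a-TKO and 2115 (16.1%) lower. At least 2-fold higher were 1005 (7.64%) and at least 2-fold lower 577 (4.39%), and the median difference of all genes was 0.02. With each array scaled on its median, the median shifted to 0.10 and the split was 2834 higher and 1358 lower. The SE pools the spread of all 4 groups and can understate that of Foxp3-KO. With the 4 arrays compared fitted alone, 638 were called higher and 463 lower, and 1070 of the 4607 calls were kept. The calls numbered 1431 higher and 1254 lower without Nr4a-TKO replicate 2, and 1131 and 957 without its replicate 1. They numbered 2840 and 2533 without Foxp3-KO replicate 1, and 1896 and 1363 without its replicate 2. In these fits the lone array of a group is assumed to vary like the other groups.

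Wide gaps between the Foxp3-KO replicates were more frequent among the higher genes than among the lower ones. Of the 1005 genes at least 2-fold higher, 324 (32.2%) had Foxp3-KO replicates more than 1 log2 unit apart, against 26 (4.51%) of the 577 lower ones and 991 (7.53%) of all genes. In 863 (85.9%) of the higher genes, Foxp3-KO replicate 1 was the one nearer to Nr4a-TKO, as it was in 447 (77.5%) of the lower genes. Across the genes tested, Foxp3-KO replicate 1 correlated with the Nr4a-TKO arrays at 0.950 and 0.957, and Foxp3-KO replicate 2 at 0.911 and 0.926. The share of all genes with replicate 1 nearer was not computed, so neither share is read as particular to the called genes. A gap of more than 2 log2 units was found for 358 genes, and in 340 of them replicate 1 was the higher one. In all 1005 higher genes both Foxp3-KO arrays lay below both Nr4a-TKO arrays. Over all 13155 genes, the groups did not overlap, in either direction, in 9158 (69.6%). The 1005 genes were called on these same arrays, so their separation is no further support.

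**Figure D2:**
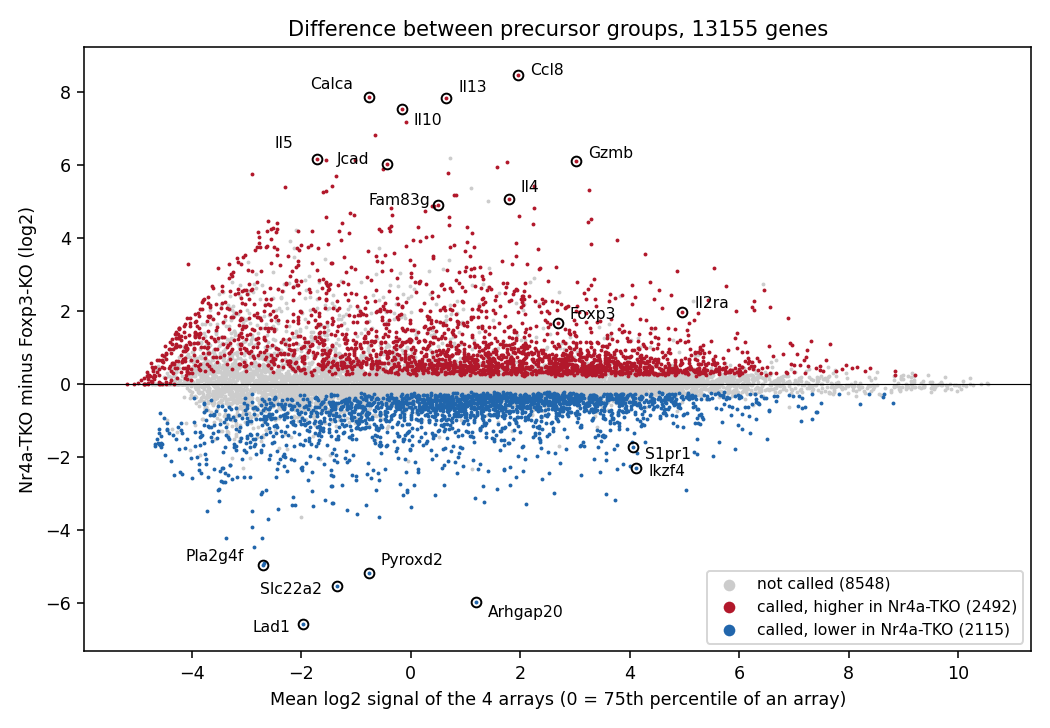
Difference between Nr4a-TKO and Foxp3-KO (log2, y axis) against the mean log2 signal of the 4 arrays (x axis) for 13155 genes, with called genes in colour. Genes undetected in a group are drawn at their lower bound, or at 0 where the bound gives no fold. Genes above background on 1 Foxp3-KO array, such as Ccl8 and Il10, are drawn at the fitted value, and Il13 and Arhgap20 stand out at 7.82 and -5.96.

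Cytokine genes, cytokine receptor genes and effector genes were among the leading genes higher in Nr4a-TKO. Il13, a type 2 cytokine, was at 4.63 and 4.50 in Nr4a-TKO, against -3.21 and -3.31 in Foxp3-KO, and both replicates of each group lay close together. That is a 227-fold difference (7.82 ± 0.10, adjusted p = 1.29e-05), the largest among genes above background on all 4 arrays with separated replicates. Gzmb, a cytotoxic granule protease, was at 6.38 and 5.77 in Nr4a-TKO, against 1.54 and -1.58 in Foxp3-KO (6.09 ± 0.97, adjusted p = 0.00859). Ltb4r1, a leukotriene B4 receptor, was at 4.77 and 4.84 in Nr4a-TKO, against 0.12 and -2.67 in Foxp3-KO (6.07 ± 0.84, adjusted p = 0.00583). The Foxp3-KO arrays of both genes were apart by over 2 log2 units and still below both Nr4a-TKO arrays. Jcad, a junction protein gene, was at 2.90 and 2.27 in Nr4a-TKO, against -3.14 and -3.73 in Foxp3-KO (6.02 ± 0.45, adjusted p = 0.00127), and Fam83g at 3.16 and 2.73 in Nr4a-TKO, against -1.88 and -2.01 in Foxp3-KO (4.89 ± 0.19, adjusted p = 0.000234), with tight replicates. Il1rl1, the IL-33 receptor, was at 4.62 and 4.49 in Nr4a-TKO, against 0.62 and -3.41 in Foxp3-KO (5.95 ± 1.20, adjusted p = 0.0167). Il1r2, a decoy receptor for IL-1, was at 4.85 and 5.08 in Nr4a-TKO, against 0.65 and -1.55 in Foxp3-KO (5.42 ± 0.66, adjusted p = 0.00424), and the chemokine gene Ccl4 at 6.01 and 5.82 in Nr4a-TKO, against 2.60 and -1.40 in Foxp3-KO (5.32 ± 1.20, adjusted p = 0.0223). The carboxypeptidase gene Cpe (5.18 ± 0.85, adjusted p = 0.00931), the antioxidant gene Srxn1 (5.17 ± 0.68, adjusted p = 0.0051), Il4 (5.05 ± 0.41, adjusted p = 0.00156) and the nuclear receptor gene Pparg (4.88 ± 0.77, adjusted p = 0.00853) completed the 12 highest. Gzmb, Il1rl1 and Ccl4 lost their calls without Nr4a-TKO replicate 1 (adjusted p of 0.0501 to 0.094). Il1rl1 and Ccl4 lost their calls without Nr4a-TKO replicate 2 (adjusted p of 0.065 to 0.0792). The difference of Il1rl1 was 3.93 without Foxp3-KO replicate 2. The difference of Ccl4 was 3.32 without Foxp3-KO replicate 2.

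Some genes were undetected in Foxp3-KO and entered the test through Nr4a-TKO alone. Their fold is a lower bound: the mean signal of the detected group against, on each array of the other, the lowest signal that counted as above background or the probe's own signal where that was higher. No adjusted p is printed with a bound, because the fit behind the call used signals below background. Of the 1005 genes at least 2-fold higher 264 were undetected in a group, and of the 577 lower ones 74. Calca, which encodes calcitonin and the neuropeptide CGRP, was at 4.16 and 3.80 in Nr4a-TKO and at least 233-fold higher. Il5, the eosinophil cytokine, was at 2.35 and 2.18 in Nr4a-TKO and at least 71-fold higher. Col18a1, a basement membrane collagen gene, was at least 41.7-fold higher and Stab1, a scavenger receptor gene, at least 38.8-fold. Other genes passed the filter through Nr4a-TKO and were above background on 1 Foxp3-KO array, so their fitted difference rests on a dim value and is not printed. Their adjusted p, here and in the lists below, rests on the same dim value and marks the call only. The chemokine gene Ccl8, singled out after its values were seen, was one of them, at 7.11 and 5.28 in Nr4a-TKO, against -0.44 and -4.10 in Foxp3-KO (adjusted p = 0.00695). Iglon5, also above background on 1 Foxp3-KO array and singled out in the same way, was at 3.18 and 3.80 in Nr4a-TKO, against -3.29 and -4.05 in Foxp3-KO (adjusted p = 0.000308), with 2.22 and 2.0 in WT Treg and -6.47 and -6.61 in WT Tconv.

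Several leading genes lower in Nr4a-TKO had Foxp3-KO near the level of WT Treg. Arhgap20, a GTPase-activating protein gene, was at -2.05 and -1.51 in Nr4a-TKO, against 4.13 and 4.23 in Foxp3-KO, a 62.2-fold difference (-5.96 ± 0.20, adjusted p = 0.000184). Its Foxp3-KO arrays were at the level of WT Treg (4.28 and 3.99) and its Nr4a-TKO arrays near WT Tconv (-2.44 and -2.34). The same order was seen for the organic cation transporter gene Slc22a2, at -3.91 and -4.28 in Nr4a-TKO, against 1.47 and 1.37 in Foxp3-KO, with 2.10 and 2.43 in WT Treg and -4.39 and -4.27 in WT Tconv (-5.52 ± 0.17, adjusted p = 0.000177). Gsta4, a glutathione transferase gene, was at -2.78 and -3.0 in Nr4a-TKO, against 0.59 and 0.51 in Foxp3-KO, with 1.43 and 1.46 in WT Treg and -3.78 and -3.55 in WT Tconv (-3.44 ± 0.12, adjusted p = 0.000184). Selp, which encodes P-selectin, was at -3.99 and -3.65 in Nr4a-TKO, against -0.64 and -0.38 in Foxp3-KO, with -0.45 and -0.15 in WT Treg and -4.35 and -4.62 in WT Tconv (-3.31 ± 0.19, adjusted p = 0.00067). Pyroxd2 was at -3.88 and -2.81 in Nr4a-TKO, against 1.48 and 2.18 in Foxp3-KO (-5.17 ± 0.44, adjusted p = 0.00173) and there both wild-type groups were high, at 0.86 and 1.56 in WT Treg and 2.15 and 2.14 in WT Tconv. The RIKEN transcript 2310065F04Rik was at -3.79 and -3.77 in Nr4a-TKO, against -0.21 and -0.70 in Foxp3-KO (-3.32 ± 0.16, adjusted p = 0.000466), and here Foxp3-KO stood above both wild-type groups, at -3.75 and -3.73 in WT Treg and -3.85 and -3.76 in WT Tconv. Klra8, an activating NK receptor gene of the Ly49 family, was at -2.26 and -2.53 in Nr4a-TKO, against 2.59 and -0.09 in Foxp3-KO (-3.65 ± 0.81, adjusted p = 0.0214), and its Foxp3-KO arrays were far apart. Lypd6b (-3.55 ± 0.58, adjusted p = 0.00934), the iron reductase gene Cybrd1 (-3.42 ± 0.21, adjusted p = 0.000796), Rasl11b (-3.36 ± 0.18, adjusted p = 0.000596), the transporter gene Slc16a5 (-3.33 ± 0.30, adjusted p = 0.00194) and Igsf3 (-3.30 ± 0.23, adjusted p = 0.00101) completed the 12 lowest. Klra8 lost its call without Nr4a-TKO replicate 1 (adjusted p = 0.0827). Klra8 lost its call without Nr4a-TKO replicate 2 (adjusted p = 0.0857). The difference of Klra8 was -2.30 without Foxp3-KO replicate 1.

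Other genes were undetected in Nr4a-TKO and entered the test through Foxp3-KO alone. Among them Lad1, which encodes the anchoring filament protein ladinin, was at 1.84 and 2.38 in Foxp3-KO and at least 94.5-fold lower in Nr4a-TKO. WT Treg had Lad1 at 2.62 and 2.32. The phospholipase gene Pla2g4f was at least 31.2-fold lower, C1ql3 at least 22.1-fold and the acyl-CoA oxidase gene Acoxl at least 18.6-fold. Foxp3-KO had Pla2g4f at 0.42 and 0.61, with 1.71 and 1.58 in WT Treg. C1ql3 was at 0.25 and -0.22 in Foxp3-KO, with -0.04 and -0.05 in WT Treg.

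**Figure D3:**
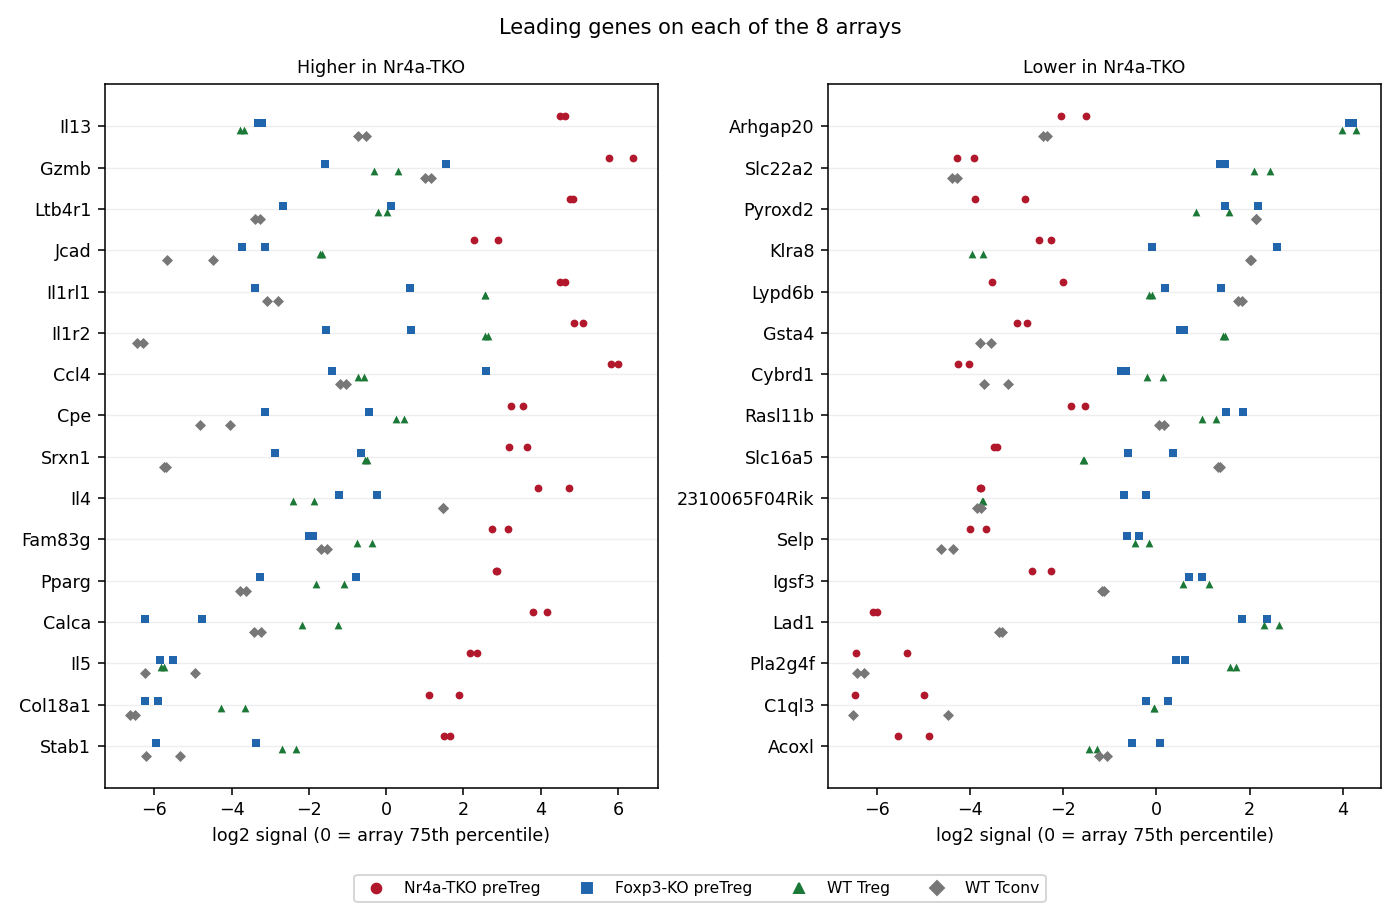
Log2 signal (x axis) of the 12 highest and 12 lowest called genes and of the 4 largest lower bounds in each direction, 1 point per array, with Nr4a-TKO above Foxp3-KO, WT Treg and WT Tconv within each gene. The Foxp3-KO arrays lie apart for Gzmb (1.54 and -1.58) and close together for Il13 (-3.21 and -3.31).

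The WT means lay mostly nearer to Foxp3-KO. The direction and size of the difference do not use the WT arrays, but their spread is part of the SE behind the calls. Among the 1005 genes at least 2-fold higher, the WT Treg mean was nearer to Foxp3-KO in 784 (78.0%) and below both precursor groups in 340. Among the 577 genes at least 2-fold lower, it was nearer to Foxp3-KO in 465 (80.6%). Over all 13155 genes it was nearer to Foxp3-KO in 67.3%. The WT Tconv mean was nearer to Foxp3-KO in 90.2% of the higher genes and in 67.1% of the lower ones, against 63.1% of all genes. These shares are descriptions with no test.

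Genes of regulatory T cells were mostly higher in Nr4a-TKO. Of 34 tested genes 20 (58.8%) were called higher and 4 (11.8%) lower (median 1.39), against 18.9% and 16.1% of all genes and a median of 0.02. These shares of all genes are the frame for every list below. The 20 higher genes include Foxp3, named in a label and read by a reporter in a gate, and the gate gene Il2ra. Both are given above and are no separate support. Ctla4, a co-inhibitory receptor, was at 4.17 and 3.68 in Nr4a-TKO, against 1.15 and 0.40 in Foxp3-KO (3.15 ± 0.33, adjusted p = 0.00295), and Nr4a-TKO was above WT Treg (2.25 and 2.60). Icos, a costimulatory receptor, was at 7.37 and 7.21 in Nr4a-TKO, against 5.34 and 5.02 in Foxp3-KO (2.11 ± 0.13, adjusted p = 0.000808), with 5.45 and 5.58 in WT Treg. Izumo1r, which encodes folate receptor 4, was higher as well (1.35 ± 0.09, adjusted p = 0.00106). Among the 4 that were lower, Ikzf4, an Ikaros family factor of regulatory T cells, was at 3.23 and 2.73 in Nr4a-TKO, against 5.21 and 5.33 in Foxp3-KO (-2.29 ± 0.17, adjusted p = 0.00127), and Foxp3-KO was near WT Treg (5.99 and 5.90). The others were Lad1, described above, Ikzf2 and Swap70. Il10, the immunosuppressive cytokine, was at 3.86 and 3.33 in Nr4a-TKO, against -1.73 and -6.11 in Foxp3-KO (adjusted p = 0.0115), above background on 1 Foxp3-KO array. Klrg1, a receptor of effector regulatory T cells, was at 4.14 and 2.99 in Nr4a-TKO, against -0.33 and -4.08 in Foxp3-KO (adjusted p = 0.0168), above background on 1 Foxp3-KO array. Entpd1, which encodes CD39, was at -0.16 and -0.59 in Nr4a-TKO, against -2.42 and -5.08 in Foxp3-KO (adjusted p = 0.0321), measured on 1 Foxp3-KO array as well. In 12 of the 34 genes, Foxp3-KO replicate 1 was more than 1 log2 unit above replicate 2. When only genes above background on all 4 arrays were tested, 17 of 29 were called higher and 3 lower. Tigit, an inhibitory receptor above background on 1 Foxp3-KO array, was at 1.51 and 1.03 in Nr4a-TKO, against -0.72 and -4.16 in Foxp3-KO and did not pass (adjusted p = 0.0532). Il10, Klrg1 and Entpd1 lost their calls without Nr4a-TKO replicate 1 (adjusted p of 0.0611 to 0.13). Klrg1 and Entpd1 lost their calls without Nr4a-TKO replicate 2 (adjusted p of 0.0508 to 0.0908). For this list the counts were 10 higher and 4 lower without Nr4a-TKO replicate 1.

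Genes of IL-2 and STAT5 signalling were higher on balance (median 0.75). Of 16 genes 8 (50%) were called higher and 3 (18.8%) lower, against 18.9% and 16.1% of all genes. Beside Il2ra, Cish, a feedback inhibitor that STAT5 induces, was at 5.57 and 5.47 in Nr4a-TKO, against 4.42 and 4.20 in Foxp3-KO (1.21 ± 0.11, adjusted p = 0.00185), and Nr4a-TKO was at the level of WT Treg (5.32 and 5.47). Socs3, another feedback inhibitor, was at 5.05 and 4.52 in Nr4a-TKO, against 2.33 and 1.51 in Foxp3-KO (2.86 ± 0.30, adjusted p = 0.00279), and the kinase gene Jak3 was higher (0.91 ± 0.08, adjusted p = 0.00197). Il7r, the IL-7 receptor chain, was at 5.10 and 5.36 in Nr4a-TKO, against 3.85 and 3.52 in Foxp3-KO (1.55 ± 0.25, adjusted p = 0.00897), and Nr4a-TKO was near WT Tconv (5.35 and 5.34). Stat5b itself was lower, at 4.18 and 4.30 in Nr4a-TKO, against 4.92 and 5.17 in Foxp3-KO (-0.80 ± 0.11, adjusted p = 0.00619). Il2 was at 1.16 and 1.47 in Nr4a-TKO, against 0.04 and -3.47 in Foxp3-KO and did not pass (3.03 ± 1.07, adjusted p = 0.0759), and its Foxp3-KO arrays were over 2 log2 units apart. With 1 array left out, 1 to 4 members were called lower, and 5 were called higher without Nr4a-TKO replicate 1.

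The type 2 cytokines set Nr4a-TKO apart from the other 3 groups. Of 19 tested Th2 genes 13 were called higher and 1 lower (median 1.49, or 1.34 with undetected members at their bound). When only genes above background on all 4 arrays were tested, 10 of 15 were called higher and 1 lower. Il4 was at 4.73 and 3.93 in Nr4a-TKO, against -0.24 and -1.21 in Foxp3-KO, with -2.42 and -1.88 in WT Treg and 1.47 and 1.48 in WT Tconv. Il13 was at 4.63 and 4.50 in Nr4a-TKO, against -3.21 and -3.31 in Foxp3-KO, with -3.68 and -3.77 in WT Treg and -0.74 and -0.53 in WT Tconv. Il5 was at 2.35 and 2.18 in Nr4a-TKO and undetected on both Foxp3-KO arrays. Each of these cytokines was highest on both Nr4a-TKO arrays, and Il4 and Il13 were higher in WT Tconv than in Foxp3-KO or WT Treg. Areg, a growth factor of tissue-repair cells, was at 1.84 and 1.17 in Nr4a-TKO, against -3.41 and -5.82 in Foxp3-KO (adjusted p = 0.00449), above background on 1 Foxp3-KO array. Maf, which activates Il4, was at 5.74 and 5.19 in Nr4a-TKO, against 2.38 and -0.32 in Foxp3-KO (4.43 ± 0.82, adjusted p = 0.0132), and the cytokine-related factor Nfil3 at 3.88 and 3.48 in Nr4a-TKO, against 1.37 and -1.0 in Foxp3-KO (3.5 ± 0.72, adjusted p = 0.0172). Crlf2, the receptor chain for TSLP, was at 6.65 and 6.46 in Nr4a-TKO, against 5.45 and 5.12 in Foxp3-KO (1.27 ± 0.13, adjusted p = 0.00265). Gata3, the master factor of Th2 cells, differed far less, at 4.51 and 4.43 in Nr4a-TKO, against 4.10 and 4.09 in Foxp3-KO (0.37 ± 0.07, adjusted p = 0.0127). Ecm1, which serves the exit of Th2 cells from lymph nodes, was lower (-0.97 ± 0.13, adjusted p = 0.00515). Maf, Nfil3 and Gata3 lost their calls without Nr4a-TKO replicate 1 (adjusted p of 0.0636 to 0.0839). Nfil3 lost its call without Nr4a-TKO replicate 2 (adjusted p = 0.0595). The difference of Nfil3 was 2.31 without Foxp3-KO replicate 2. Of the list, 7 genes were called higher without Nr4a-TKO replicate 1, and 3 lower without Foxp3-KO replicate 1.

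Il4, Il13 and Il5 lie near each other on mouse chromosome 11, in the order Septin8, Kif3a, Il4, Il13, Rad50, Il5 and Irf1 in the RefSeq annotation of GRCm38.p6. The neighbours, shown for their place and chosen after their values were seen, had smaller differences. Septin8, a septin gene, was at 1.21 and 1.13 in Nr4a-TKO, against 0.54 and -0.13 in Foxp3-KO (0.97 ± 0.21, adjusted p = 0.0207). Kif3a, a kinesin gene, was at 1.19 and 0.98 in Nr4a-TKO, against 0.70 and 0.82 in Foxp3-KO (0.32 ± 0.09, adjusted p = 0.0457), Rad50, a DNA repair gene, at 1.93 and 2.14 in Nr4a-TKO, against 1.85 and 1.79 in Foxp3-KO (0.21 ± 0.09, adjusted p = 0.119), and Irf1, an interferon regulatory factor gene, at 6.37 and 6.14 in Nr4a-TKO, against 6.73 and 6.56 in Foxp3-KO (-0.39 ± 0.11, adjusted p = 0.0437). Septin8, Kif3a and Irf1 lost their calls without Nr4a-TKO replicate 1 (adjusted p of 0.0547 to 0.172). Septin8 and Irf1 lost their calls without Nr4a-TKO replicate 2 (adjusted p of 0.0709 to 0.158). Kif3a and Irf1 lost their calls without Foxp3-KO replicate 1 (adjusted p of 0.117 to 0.118). Kif3a and Irf1 lost their calls without Foxp3-KO replicate 2 (adjusted p of 0.0582 to 0.0656). The difference of Septin8 was 0.63 without Foxp3-KO replicate 2. The promoters of the 3 cytokine genes are given because these genes moved together, as the 250 bases before the start in RefSeq (GRCm38.p6). For Il4 this is chr11:53618666-53618915 on the minus strand, from the outer of its 2 starts, for Il13 chr11:53634703-53634952 on the minus strand, and for Il5 chr11:53720544-53720793 on the plus strand. Capitals mark letters of 4 motifs, searched on both strands. The NFAT core was searched as GGAAAA. The element of Gata factors was searched as AGATAA. The forkhead element was searched as TGTTTAC. The Nr4a monomer element was searched as AAAGGTCA.
Il4: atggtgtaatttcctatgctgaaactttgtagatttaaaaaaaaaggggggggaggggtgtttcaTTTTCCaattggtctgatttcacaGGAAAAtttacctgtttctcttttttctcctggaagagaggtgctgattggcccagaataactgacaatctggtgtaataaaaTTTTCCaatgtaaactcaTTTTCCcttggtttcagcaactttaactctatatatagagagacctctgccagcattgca
Il13: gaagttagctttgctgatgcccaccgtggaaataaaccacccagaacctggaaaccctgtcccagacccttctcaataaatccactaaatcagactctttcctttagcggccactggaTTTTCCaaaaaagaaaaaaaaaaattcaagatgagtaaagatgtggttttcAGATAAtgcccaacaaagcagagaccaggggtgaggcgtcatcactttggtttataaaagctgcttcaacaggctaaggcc
Il5: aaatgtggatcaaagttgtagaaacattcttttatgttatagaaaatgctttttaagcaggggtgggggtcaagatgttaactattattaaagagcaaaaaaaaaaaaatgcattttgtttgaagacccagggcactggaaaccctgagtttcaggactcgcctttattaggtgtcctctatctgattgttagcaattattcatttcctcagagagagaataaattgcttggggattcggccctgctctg
In these letters, the Il4 window held 4 NFAT cores, the Il13 window 1 NFAT core and 1 Gata element, and the Il5 window 0 of the 4 motifs. The shorter string GGAAA was not searched. Read on both strands, it also lies outside the capitals in the Il4, Il13 and Il5 windows. Among all RefSeq promoter windows of this length, 20.4% held the NFAT core, 9.99% the Gata element, 3.17% the forkhead element and 1.34% the Nr4a element. Among windows of the genes tested here, the same shares were 18.3%, 6.51%, 2.31% and 1.01%. Among windows of genes at least 2-fold higher in Nr4a-TKO these shares were 18.6%, 7.41%, 3.46% and 0.296%, and among windows of genes at least 2-fold lower 19.9%, 6.73%, 3.13% and 1.25%. A match is a match of letters and was not tested as a binding site.

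Th17 genes were higher too, 9 of 14 called higher and 1 lower (median 1.67). Batf, an AP-1 factor needed for Th17 cells, was at 5.15 and 5.12 in Nr4a-TKO, against 3.25 and 2.67 in Foxp3-KO (2.18 ± 0.18, adjusted p = 0.00169), and Rora (1.17 ± 0.13, adjusted p = 0.00367) and Stat3 (0.60 ± 0.10, adjusted p = 0.00897) were higher with it. With the mean of all its probes Rora lost its call, and over the alternatives its difference was as low as 0.29. Il17a was at 2.64 and 2.90 in Nr4a-TKO, against -1.75 and -6.35 in Foxp3-KO (adjusted p = 0.0168), above background on 1 Foxp3-KO array, and undetectably dim in WT Treg (-5.87 and -6.33). Il17f (-0.63 and -0.43 in Nr4a-TKO, against -3.34 and -6.09 in Foxp3-KO, adjusted p = 0.0164), the IL-23 receptor gene Il23r (-1.19 and -1.31 in Nr4a-TKO, against -3.44 and -6.13 in Foxp3-KO, adjusted p = 0.0239) and the IL-1 receptor gene Il1r1 (1.09 and 0.47 in Nr4a-TKO, against -2.30 and -4.50 in Foxp3-KO, adjusted p = 0.0169) had the same layout. Il6st, the shared receptor chain gp130, was lower, at 2.06 and 1.94 in Nr4a-TKO, against 3.15 and 3.24 in Foxp3-KO (-1.19 ± 0.08, adjusted p = 0.000928). Il17a, Il17f, Il23r and Il1r1 lost their calls without Nr4a-TKO replicate 1 (adjusted p of 0.0703 to 0.0982). Il17a, Il17f, Il23r and Il1r1 lost their calls without Nr4a-TKO replicate 2 (adjusted p of 0.0559 to 0.0837). Of the Th17 genes 4 were called higher without either Nr4a-TKO array. With only genes above background on all 4 arrays, 5 were.

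Of 14 tested Th1 genes 4 (28.6%) were called higher and 1 lower, against 18.9% and 16.1% of all genes. The median was 1.45 (1.28 with an undetected member at its bound), and 0.53 without Foxp3-KO replicate 2. In 7 of them, Foxp3-KO replicate 1 was more than 1 log2 unit above replicate 2. Ifng was at 2.93 and 2.79 in Nr4a-TKO, against 2.79 and -2.04 in Foxp3-KO, so Foxp3-KO replicate 1 was at the Nr4a-TKO level and replicate 2 was not (2.48 ± 1.44, adjusted p = 0.225). Tbx21, the Th1 master factor, was at 3.45 and 3.43 in Nr4a-TKO, against 2.51 and 0.02 in Foxp3-KO (2.18 ± 0.75, adjusted p = 0.0712), and Cxcr3, a Th1 chemokine receptor, at 5.05 and 5.0 in Nr4a-TKO, against 4.20 and 1.05 in Foxp3-KO (2.40 ± 0.94, adjusted p = 0.0983). Il12rb1, an IL-12 receptor chain, was called, at 4.27 and 4.09 in Nr4a-TKO, against 2.67 and 1.81 in Foxp3-KO (1.94 ± 0.27, adjusted p = 0.00628), as was the interferon receptor gene Ifngr1 (1.35 ± 0.23, adjusted p = 0.0107). Ifngr1 lost its call without Nr4a-TKO replicate 1 (adjusted p = 0.0596). The count of higher Th1 genes was 10 without Foxp3-KO replicate 1, 7 without Foxp3-KO replicate 2, 2 without Nr4a-TKO replicate 2 and 1 without Nr4a-TKO replicate 1. Of 14 follicular helper genes 7 were called higher and 1 lower (median 1.03). Btla, an inhibitory receptor gene, was higher (0.79 ± 0.08, adjusted p = 0.00236) and Tox, an HMG-box factor gene, lower (-0.78 ± 0.07, adjusted p = 0.00231). Bcl6, the follicular master factor, was at 4.18 and 3.54 in Nr4a-TKO, against 4.34 and 4.42 in Foxp3-KO and did not pass (-0.52 ± 0.21, adjusted p = 0.107). The follicular count was 3 higher without either Nr4a-TKO array, 11 without Foxp3-KO replicate 1 and 4 without Foxp3-KO replicate 2.

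**Figure D4:**
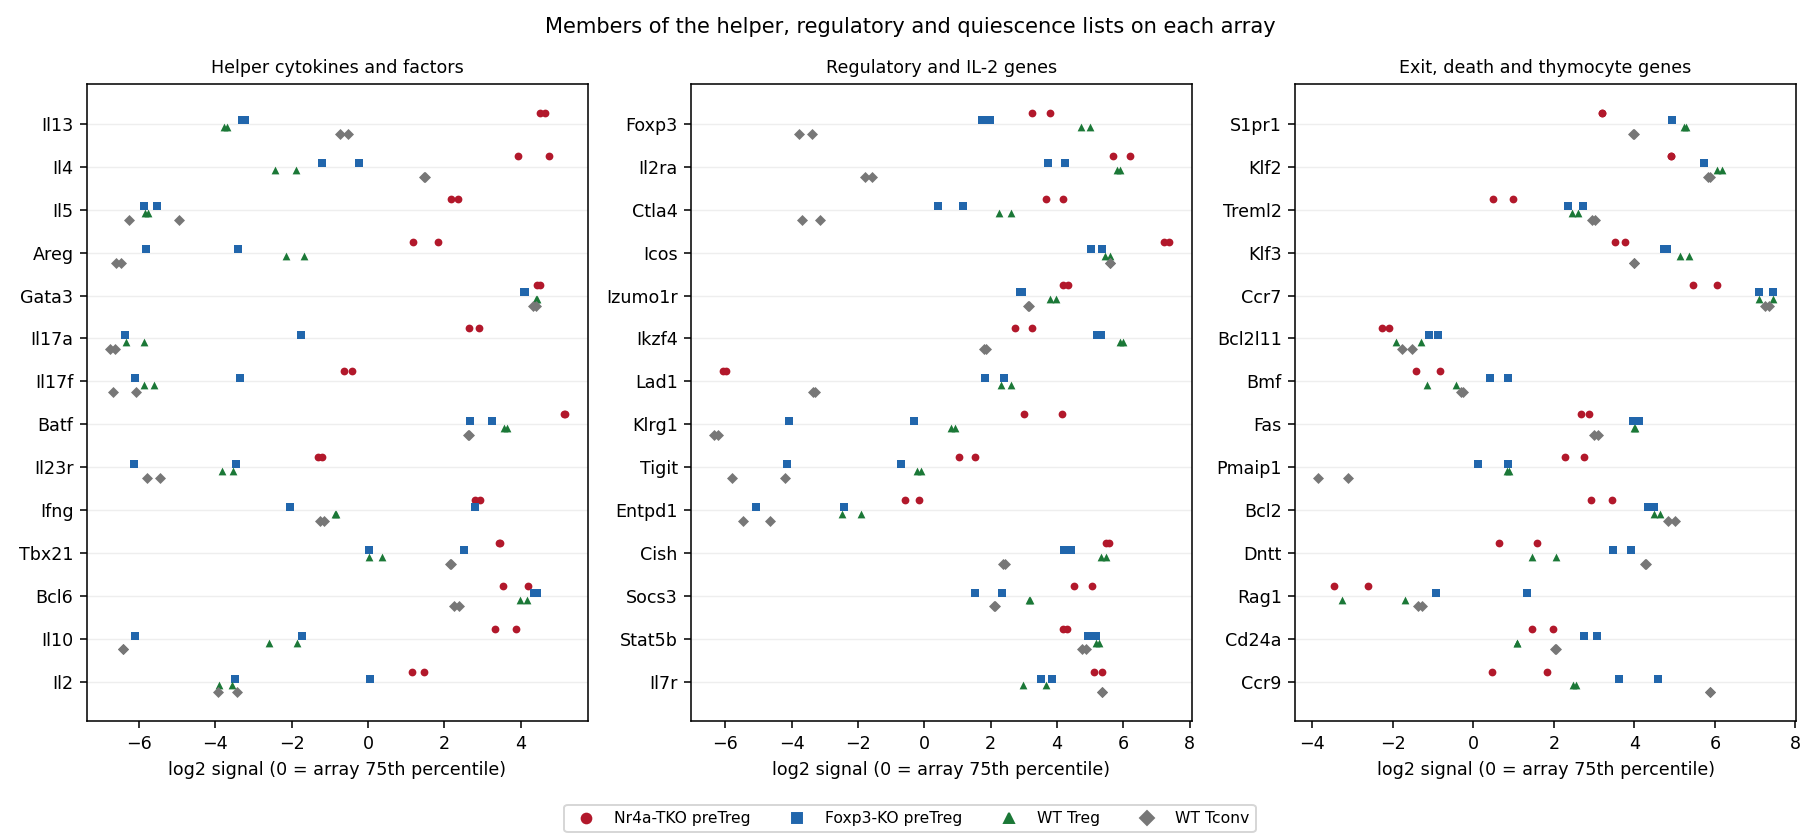
Log2 signal (x axis) on each of the 8 arrays for members of the helper, regulatory, exit, death and thymocyte lists, with Nr4a-TKO above Foxp3-KO, WT Treg and WT Tconv within each gene. Foxp3-KO replicates coincide for S1pr1 (4.94 and 4.92) and lie far apart for Ifng (2.79 and -2.04).

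Co-inhibitory receptor genes were higher in Nr4a-TKO, 12 of 18 called higher and 3 lower (median 0.77). Lag3 was at 4.45 and 4.41 in Nr4a-TKO, against 1.37 and -1.28 in Foxp3-KO (4.39 ± 0.84, adjusted p = 0.0142) and Lilrb4a, an inhibitory receptor of activated cells, at 5.75 and 5.35 in Nr4a-TKO, against 2.37 and -0.31 in Foxp3-KO (4.51 ± 0.82, adjusted p = 0.0122). Nr4a-TKO was well above WT Treg for both, which was at -0.31 and -0.38 for Lag3. Pdcd1lg2, the PD-1 ligand PD-L2, was at 2.96 and 2.89 in Nr4a-TKO, against 1.11 and 0.21 in Foxp3-KO (2.27 ± 0.28, adjusted p = 0.00455), and Vsir, which encodes VISTA, at 4.08 and 3.92 in Nr4a-TKO, against 2.77 and 2.38 in Foxp3-KO (1.42 ± 0.14, adjusted p = 0.00251). Cd96, a receptor for nectin-family ligands, was lower, at 2.49 and 2.76 in Nr4a-TKO, against 4.45 and 4.60 in Foxp3-KO (-1.90 ± 0.11, adjusted p = 0.000737), and Foxp3-KO was near WT Treg (4.88 and 4.84). Lag3 and Lilrb4a lost their calls without Nr4a-TKO replicate 1 (adjusted p of 0.0647 to 0.0677). Lag3 lost its call without Nr4a-TKO replicate 2 (adjusted p = 0.0588). The co-inhibitory count was 7 and 1 without Nr4a-TKO replicate 1. Cytotoxic granule genes gave 2 of 12 (16.7%) called higher, a share near the 18.9% of all genes, and 0 lower. The 2 were Srgn, the granule proteoglycan gene (2.11 ± 0.30, adjusted p = 0.00631), and Gzmb. The median of the 12 genes was 0.25, 1.68 without Foxp3-KO replicate 1, -0.14 without its replicate 2, and 0.40 and 0.14 without Nr4a-TKO replicates 1 and 2. Within Foxp3-KO they differed by array, with 7 of 12 more than 1 log2 unit higher on replicate 1. Nkg7 was at 6.26 and 6.35 in Nr4a-TKO, against 5.18 and 2.88 in Foxp3-KO (2.28 ± 0.69, adjusted p = 0.0506) and Gzma at 2.04 and 1.66 in Nr4a-TKO, against 5.28 and 1.83 in Foxp3-KO (-1.70 ± 1.08, adjusted p = 0.26). Of the 12 genes, 7 were called higher and 0 lower without Foxp3-KO replicate 1, 4 higher and 3 lower without Foxp3-KO replicate 2, and 1 higher without Nr4a-TKO replicate 1.

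Chemokine receptor genes were higher on balance. Of 15 tested 8 (53.3%) were called higher and 3 (20%) lower, against 18.9% and 16.1% of all genes. When only genes above background on all 4 arrays were tested, 6 of 13 were called higher and 3 lower. For the 15 the median was 2.37, or 1.49 with undetected members at their bound. The median was 1.15 without Foxp3-KO replicate 2. Ccr2, an inflammatory receptor, was at 4.08 and 3.63 in Nr4a-TKO, against 1.08 and -1.09 in Foxp3-KO (3.86 ± 0.66, adjusted p = 0.0105), and Cxcr6, a receptor of tissue-resident T cells, at 6.44 and 6.40 in Nr4a-TKO, against 4.67 and 1.97 in Foxp3-KO (3.11 ± 0.81, adjusted p = 0.0338). Ccr3, the eotaxin receptor, was undetected in Foxp3-KO, entered the test through Nr4a-TKO alone and was at least 18.1-fold higher. Ccr7, which guides cells within the thymus and to lymph nodes, was at 5.45 and 6.05 in Nr4a-TKO, against 7.09 and 7.44 in Foxp3-KO (-1.51 ± 0.24, adjusted p = 0.0087). The thymocyte receptor Ccr9 was at 0.45 and 1.82 in Nr4a-TKO, against 3.62 and 4.59 in Foxp3-KO (-2.97 ± 0.50, adjusted p = 0.0102), with 2.56 and 2.47 in WT Treg and 5.87 and 5.88 in WT Tconv. Ccr10, a skin-homing receptor, was lower as well, at -2.17 and -2.33 in Nr4a-TKO, against -1.07 and -0.87 in Foxp3-KO (-1.28 ± 0.11, adjusted p = 0.00177). Ccr2 and Cxcr6 lost their calls without Nr4a-TKO replicate 1 (adjusted p of 0.0585 to 0.123). Cxcr6 lost its call without Nr4a-TKO replicate 2 (adjusted p = 0.108). The difference of Cxcr6 was 1.75 without Foxp3-KO replicate 2. The higher count was 3 without Nr4a-TKO replicate 1 and 4 without its replicate 2.

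Genes of quiescence and of conventional T cells had the largest share of lower calls among the 23 lists, 15 of 18 called lower and 1 higher (median -1.38). S1pr1, the receptor with which mature thymocytes leave the thymus, was at 3.20 and 3.19 in Nr4a-TKO, against 4.94 and 4.92 in Foxp3-KO. That is a 3.33-fold difference with nearly identical replicates (-1.73 ± 0.06, adjusted p = 0.000222), and Nr4a-TKO was also below WT Tconv (3.98 and 3.97). Klf2, the factor that activates S1pr1, was at 4.90 and 4.91 in Nr4a-TKO, against 5.72 and 5.72 in Foxp3-KO (-0.82 ± 0.07, adjusted p = 0.00176), and Klf3 at 3.76 and 3.51 in Nr4a-TKO, against 4.74 and 4.82 in Foxp3-KO (-1.15 ± 0.12, adjusted p = 0.00274). Treml2 (-1.79 ± 0.20, adjusted p = 0.00331) and the TGF-beta coreceptor gene Tgfbr3 (-2.19 ± 0.23, adjusted p = 0.00277) were lower with them. The factor genes Lef1, Satb1, Bach2, Foxp1, Foxo1 and Id3 were called lower too, Tcf7 was not called, and Il7r was the member called higher. The count of lower genes was 13 to 16 when any of the 4 arrays was left out and 8 with the 4 arrays fitted alone. Of 18 thymic exit and adhesion genes 7 were higher and 6 lower. The integrin gene Itgb7 was higher (0.77 ± 0.10, adjusted p = 0.00464) and the neuropilin gene Nrp2, at -0.08 and -0.45 in Nr4a-TKO, against 2.99 and 2.93 in Foxp3-KO, lower (-3.22 ± 0.43, adjusted p = 0.00523). The higher count of this list was 2 without Nr4a-TKO replicate 1 and 3 without its replicate 2.

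Immature thymocyte genes were lower, 13 of 19 called lower and 1 higher (median -1.86, or -1.68 with undetected members at their bound). Dntt, the enzyme of N-nucleotide addition, was at 0.62 and 1.57 in Nr4a-TKO, against 3.47 and 3.91 in Foxp3-KO (-2.59 ± 0.36, adjusted p = 0.00612), with 2.04 and 1.45 in WT Treg and 4.28 and 4.28 in WT Tconv. Cd24a, a surface protein that is lost as thymocytes mature, was at 1.99 and 1.46 in Nr4a-TKO, against 2.75 and 3.06 in Foxp3-KO (-1.18 ± 0.19, adjusted p = 0.00913), and here WT Treg was lower still (1.09 and 1.09). Cd1d1, the molecule that selects innate-like T cells, was at 3.07 and 3.17 in Nr4a-TKO, against 4.08 and 4.27 in Foxp3-KO (-1.06 ± 0.11, adjusted p = 0.00312), and the water channel gene Aqp11 at -2.74 and -1.42 in Nr4a-TKO, against 0.62 and 1.0 in Foxp3-KO (-2.89 ± 0.44, adjusted p = 0.00752). Rag1, the recombinase gene, was at -3.47 and -2.62 in Nr4a-TKO, against -0.94 and 1.34 in Foxp3-KO (-3.25 ± 0.86, adjusted p = 0.0355), highest on Foxp3-KO replicate 2. Notch1 was higher (0.69 ± 0.14, adjusted p = 0.0179). Between the Nr4a-TKO arrays 7 of the 19 genes were more than 1 log2 unit apart. Rag1 and Notch1 lost their calls without Nr4a-TKO replicate 1 (adjusted p of 0.0874 to 0.149). Rag1 lost its call without Nr4a-TKO replicate 2 (adjusted p = 0.0818). Rag1 lost its call without Foxp3-KO replicate 2 (adjusted p = 0.0958). The difference of Rag1 was -2.11 without Foxp3-KO replicate 2. The lower count was 7 without Foxp3-KO replicate 2 and 8 without Nr4a-TKO replicate 1. Zbtb16, which encodes PLZF of innate-like lymphocytes, was at -1.41 and -1.17 in Nr4a-TKO, against 0.25 and 0.56 in Foxp3-KO (-1.69 ± 0.23, adjusted p = 0.00583), and the stem cell factor receptor gene Kit at -1.37 and -0.77 in Nr4a-TKO, against 2.20 and 1.76 in Foxp3-KO (-3.05 ± 0.24, adjusted p = 0.00144).

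Early response genes of the T cell receptor, the group to which Nr4a genes belong, gave 11 of 28 called higher and 3 lower (median 0.43). The median was 0.23 without Nr4a-TKO replicate 2 and 0.25 without Foxp3-KO replicate 1. Fos, Fosb and Junb, 3 of the 11, are also on the list of tissue handling genes. Nr4a2, a gene named in the label and given above, is another of the 11. High Nr4a3 was in the Nr4a-TKO gate alone, so the sort itself asked for a gene of this kind. Irf4, a factor whose level follows receptor strength, was at 3.91 and 3.83 in Nr4a-TKO, against 2.14 and 2.09 in Foxp3-KO with all replicates close (1.75 ± 0.07, adjusted p = 0.000234). Spry1, a feedback inhibitor of ERK signalling, was at 3.62 and 3.82 in Nr4a-TKO, against 1.72 and 1.19 in Foxp3-KO (2.26 ± 0.24, adjusted p = 0.00296), Fosl2, an AP-1 factor gene, at 3.40 and 3.29 in Nr4a-TKO, against 1.58 and 1.70 in Foxp3-KO (1.71 ± 0.16, adjusted p = 0.00229), and Cd44, an activation marker, at 4.12 and 3.99 in Nr4a-TKO, against 2.66 and 2.04 in Foxp3-KO (1.71 ± 0.20, adjusted p = 0.00374). Ier3, an early response gene, was at 0.91 and 0.56 in Nr4a-TKO, against -2.94 and -4.70 in Foxp3-KO (adjusted p = 0.00403), above background on 1 Foxp3-KO array. The phosphatase gene Dusp10 was lower, at -0.01 and 0.74 in Nr4a-TKO, against 1.66 and 2.23 in Foxp3-KO (-1.58 ± 0.29, adjusted p = 0.0127). Of 27 genes of proximal signalling 5 (18.5%) were called higher, a share near the 18.9% of all genes, and 9 (33.3%) lower, against 16.1% of all genes (median -0.22). That median was -0.34 without Foxp3-KO replicate 1 and -0.12 without its replicate 2. The kinase Zap70 was higher, at 7.46 and 7.46 in Nr4a-TKO, against 6.69 and 6.59 in Foxp3-KO (0.82 ± 0.07, adjusted p = 0.00176), as were Malt1 (1.53 ± 0.11, adjusted p = 0.00101) and the adaptor gene Sla (0.97 ± 0.10, adjusted p = 0.00271). The phosphatase CD45, encoded by Ptprc (-1.16 ± 0.14, adjusted p = 0.00411), the exchange factor gene Rasgrp1 (-1.07 ± 0.13, adjusted p = 0.00413) and the adaptor gene Grap2 (-1.03 ± 0.10, adjusted p = 0.00251) were lower. Cd5, whose level follows self-reactivity, was at 6.86 and 6.85 in Nr4a-TKO, against 7.63 and 8.01 in Foxp3-KO (-0.97 ± 0.13, adjusted p = 0.00525). The early response list had 5 lower calls without Foxp3-KO replicate 1. The proximal counts were 4 and 14 without Foxp3-KO replicate 1, 4 and 6 without Foxp3-KO replicate 2, and 3 and 4 without Nr4a-TKO replicate 1.

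TNF receptor, TNF ligand and NF-kB genes gave 12 of 31 called higher and 3 lower (median 0.24). The ligand genes Tnf (2.70 and 2.51 in Nr4a-TKO, against 1.28 and 0.75 in Foxp3-KO, difference 1.59 ± 0.18, adjusted p = 0.00352), Tnfsf8 (5.31 and 5.29 in Nr4a-TKO, against 3.48 and 2.35 in Foxp3-KO, difference 2.39 ± 0.37, adjusted p = 0.0082) and Tnfsf11, which encodes RANKL (0.79 ± 0.12, adjusted p = 0.00749), were higher. The adaptor gene Traf1 (0.84 ± 0.10, adjusted p = 0.00416) and the NF-kB cofactor gene Bcl3 (0.75 ± 0.11, adjusted p = 0.00639) were higher as well. Tnfrsf8, which encodes CD30, was undetected in Foxp3-KO, entered the test through Nr4a-TKO alone and was at least 2.9-fold higher. Birc3, an inhibitor of apoptosis, was lower (-0.74 ± 0.14, adjusted p = 0.0142). Birc3 lost its call without Nr4a-TKO replicate 1 (adjusted p = 0.0609). The TNF and NF-kB counts were 7 and 0 without Nr4a-TKO replicate 1, 8 and 1 without its replicate 2, and 10 and 1 without Foxp3-KO replicate 2.

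Death genes went both ways. Of 17 pro-apoptotic genes 9 (52.9%) were called higher and 4 (23.5%) lower, against 18.9% and 16.1% of all genes. For the 17 the median was 0.36, and 0.55 without Foxp3-KO replicate 1. Bcl2l11, which encodes BIM, the death protein central to thymocyte deletion, was at -2.27 and -2.11 in Nr4a-TKO, against -1.10 and -0.89 in Foxp3-KO (-1.19 ± 0.22, adjusted p = 0.0132), and Bmf, a related BH3-only gene, at -0.82 and -1.42 in Nr4a-TKO, against 0.41 and 0.86 in Foxp3-KO (-1.75 ± 0.32, adjusted p = 0.012). The death receptor gene Fas was at 2.88 and 2.68 in Nr4a-TKO, against 3.98 and 4.11 in Foxp3-KO (-1.26 ± 0.10, adjusted p = 0.00144), and Casp8, the caspase it acts through, was lower too (-0.41 ± 0.07, adjusted p = 0.0107). Pmaip1, which encodes NOXA, was higher, at 2.74 and 2.28 in Nr4a-TKO, against 0.86 and 0.12 in Foxp3-KO (2.02 ± 0.34, adjusted p = 0.0103). Of 10 survival genes 3 were called higher and 4 lower. Bcl2 was at 2.93 and 3.45 in Nr4a-TKO, against 4.35 and 4.49 in Foxp3-KO (-1.23 ± 0.18, adjusted p = 0.00727) and Mcl1 at 6.06 and 5.87 in Nr4a-TKO, against 6.40 and 6.61 in Foxp3-KO (-0.54 ± 0.11, adjusted p = 0.0152), both lower, while Bcl2a1d (0.93 ± 0.15, adjusted p = 0.00879) and the kinase gene Pim1 (2.78 and 2.26 in Nr4a-TKO, against 1.08 and 0.05 in Foxp3-KO, difference 1.95 ± 0.35, adjusted p = 0.0119) were higher. Bcl2a1d shares sequence with other members of its gene family, so its probe may read more than 1 gene. Bcl2l11, Casp8, Pmaip1 and Pim1 lost their calls without Nr4a-TKO replicate 1 (adjusted p of 0.056 to 0.0692). Bmf and Mcl1 lost their calls without Nr4a-TKO replicate 2 (adjusted p of 0.0523 to 0.0621). Bcl2l11 lost its call without Foxp3-KO replicate 2 (adjusted p = 0.0527). With either Nr4a-TKO array left out, 3 pro-apoptotic genes were called higher and 2 survival genes lower.

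Proliferation and glycolysis genes were higher on balance. Of 30 proliferation genes 18 were called higher and 0 lower (median 0.35). The thymidine kinase gene Tk1 was at 3.14 and 3.15 in Nr4a-TKO, against 2.21 and 2.11 in Foxp3-KO (0.99 ± 0.09, adjusted p = 0.00212), the ribonucleotide reductase gene Rrm2 at 4.63 and 4.46 in Nr4a-TKO, against 3.90 and 3.97 in Foxp3-KO (0.61 ± 0.08, adjusted p = 0.00545), and the mitotic cyclin gene Ccnb1 at 2.05 and 2.0 in Nr4a-TKO, against 1.65 and 1.65 in Foxp3-KO (0.38 ± 0.06, adjusted p = 0.0103). WT Treg was below both precursor groups in Rrm2 (2.63 and 2.68) and Ccnb1 (0.51 and 0.45). WT Tconv was near Nr4a-TKO in the median level of the proliferation list. That level was 3.17 and 3.18 in Nr4a-TKO, 2.56 and 2.74 in Foxp3-KO, 2.02 and 1.99 in WT Treg and 3.14 and 3.07 in WT Tconv. Of 21 glycolysis and hypoxia genes 14 were called higher and 2 lower (median 0.48). Aldoa, a glycolytic enzyme gene, was at 8.21 and 8.18 in Nr4a-TKO, against 7.20 and 7.02 in Foxp3-KO (1.09 ± 0.09, adjusted p = 0.00149), Tpi1 was higher (1.15 ± 0.10, adjusted p = 0.00196), the glucose transporter gene Slc2a1 was at 2.76 and 2.77 in Nr4a-TKO, against 1.85 and 1.73 in Foxp3-KO (0.98 ± 0.08, adjusted p = 0.00165) and Egln3, a hypoxia-induced oxygen sensor, at 2.21 and 2.33 in Nr4a-TKO, against -0.07 and -0.68 in Foxp3-KO (2.65 ± 0.20, adjusted p = 0.00134). Pdk1, a kinase that inhibits pyruvate dehydrogenase, was lower, at -0.09 and 0.05 in Nr4a-TKO, against 1.19 and 1.33 in Foxp3-KO (-1.28 ± 0.09, adjusted p = 0.00101). Ccnb1 lost its call without Nr4a-TKO replicate 1 (adjusted p = 0.0541). The glycolysis list had 1 to 3 lower calls with 1 array left out. The proliferation count was 6 without Nr4a-TKO replicate 1 and 9 without its replicate 2.

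Interferon response genes were mostly lower, 12 of 18 called lower and 2 higher (median -0.68). Oasl2 was at 1.43 and 1.21 in Nr4a-TKO, against 3.24 and 3.35 in Foxp3-KO (-1.98 ± 0.11, adjusted p = 0.000657), Ifit1 at 0.76 and 0.79 in Nr4a-TKO, against 2.02 and 2.56 in Foxp3-KO (-1.51 ± 0.18, adjusted p = 0.00398) and Ifit3 at 1.91 and 1.78 in Nr4a-TKO, against 3.33 and 3.11 in Foxp3-KO (-1.37 ± 0.13, adjusted p = 0.00222), all antiviral genes that interferon induces. Ifit2 (-1.28 ± 0.10, adjusted p = 0.00131) and Usp18, which limits interferon signalling (-0.99 ± 0.12, adjusted p = 0.00416), were lower with them. Nr4a-TKO was below all other groups for Oasl2, at 2.93 and 2.79 in WT Treg and 3.59 and 3.49 in WT Tconv, and for Ifit3, at 3.19 and 2.92 in WT Treg and 2.50 and 2.57 in WT Tconv. Oas1a was higher (0.57 ± 0.11, adjusted p = 0.0139). Oas1a lost its call without Nr4a-TKO replicate 1 (adjusted p = 0.0669). Oas1a lost its call without Nr4a-TKO replicate 2 (adjusted p = 0.0541). The lower count was 8 without Nr4a-TKO replicate 1 or Foxp3-KO replicate 2.

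ER stress and chaperone genes gave 8 of 15 called higher and 1 lower (median 0.39), with the chaperone gene Hspa5 (0.63 ± 0.11, adjusted p = 0.0117) and the asparagine synthetase gene Asns, at 1.14 and 0.91 in Nr4a-TKO, against -1.07 and -3.05 in Foxp3-KO (3.09 ± 0.60, adjusted p = 0.0147), among the higher ones and Ddit3 (-0.70 ± 0.15, adjusted p = 0.0186) lower. Of 17 cholesterol synthesis genes 0 were called higher and 3 (17.6%) lower, a share near the 16.1% of all genes. Dhcr7 differed the most of the 3 (-0.68 ± 0.09, adjusted p = 0.00469). Of 12 genes that respond to tissue handling 4 were called higher and 0 lower (median 0.66). Junb was at -0.49 and -0.31 in Nr4a-TKO, against -1.34 and -1.44 in Foxp3-KO (0.99 ± 0.13, adjusted p = 0.00493). Atf3 was undetected in Foxp3-KO, entered the test through Nr4a-TKO alone and was at least 12.8-fold higher. The heat shock gene Hspa1a was at 1.32 and -1.55 in Nr4a-TKO, against -2.14 and -2.21 in Foxp3-KO (2.06 ± 0.94, adjusted p = 0.141), with Nr4a-TKO replicate 1 the highest of the 4 arrays. Asns and Ddit3 lost their calls without Nr4a-TKO replicate 1 (adjusted p of 0.0725 to 0.0884). Asns lost its call without Nr4a-TKO replicate 2 (adjusted p = 0.056). The ER stress count was 1 and 0 (median 0.26) without Nr4a-TKO replicate 1 and 5 and 1 without Foxp3-KO replicate 2. The handling count was 2 without Nr4a-TKO replicate 1 and 6 without replicate 2.

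Most list counts were lower with the 4 arrays compared fitted alone. The number of higher calls was then 6 for regulatory T cell genes, 6 for Th2, 3 for Th17, 1 for Th1 and 2 for follicular helper genes. It was 4 for co-inhibitory receptors, 2 for chemokine receptors, 5 for IL-2 and STAT5 genes, 7 for early response genes and 4 for TNF and NF-kB genes. For proliferation it was 1, for glycolysis 5, for ER stress 0, for handling 2, for cytotoxic granule genes 0 and for pro-apoptotic genes 1. It was 3 for proximal signalling, 1 for thymic exit and 0 for survival genes. The number of lower calls was 8 for quiescence factors, 2 for pro-apoptotic genes, 3 for immature thymocyte genes, 5 for interferon response genes, 3 for proximal signalling, 4 for thymic exit, 0 for survival and 0 for cholesterol synthesis genes.

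**Figure D5:**
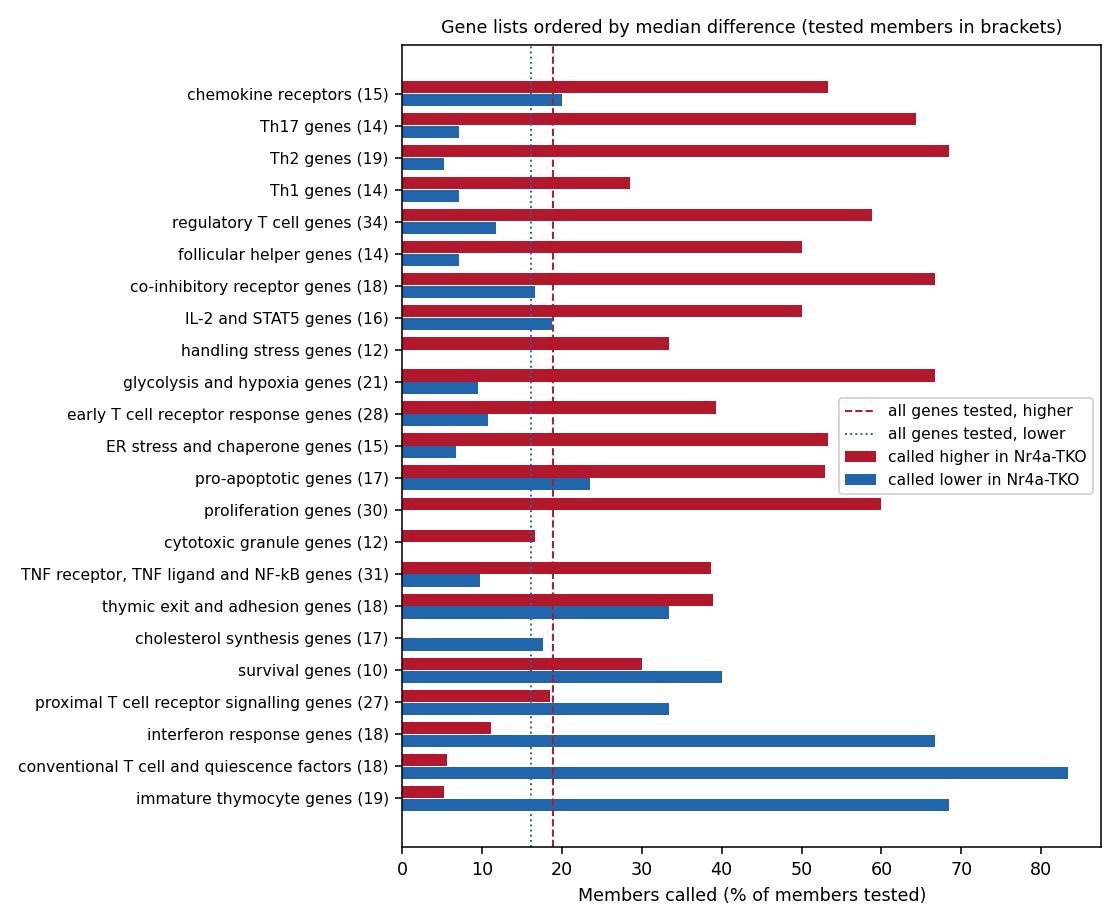
Share of the tested members (%) called higher (red) and lower (blue) in Nr4a-TKO for each of 23 gene lists, ordered by their median difference from the highest at the top, with dashed and dotted lines at the shares of all genes (18.9% higher and 16.1% lower). Th2, glycolysis and co-inhibitory lists lie far to the right in red, and the quiescence, immature thymocyte and interferon lists in blue.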

How the data were processed

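Expression of 8 mouse thymocyte samples, 2 per group, was measured on Agilent one-colour arrays. Per the file headers and the submitters' processing notes, Agilent Feature Extraction 10.7.1.1 produced the deposited files, whose processed Cy3 intensity, background-subtracted by that software and not normalized between arrays, was the starting point. The deposited matrix of intensity, scaled per array, served as an alternative. Its brighter values differed from a constant multiple of the processed intensity by at most 0.00143 on the log2 scale.

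Control spots (3671 of 62976) and outlier spots were left out, 0 spots were saturated, log2 values of spots of a probe were averaged, and each array was set relative to its 75th percentile. Symbols came from RefSeq accessions (28026 probes with a symbol, 27655 without, 21154 genes). The brightest probe of a gene was used, and genes flagged as above background on both Nr4a-TKO or both Foxp3-KO arrays were tested. The 4 groups were fitted in limma 3.58.1 (R 4.3.3; lmFit, eBayes without a trend, 4 residual and 1.64 prior degrees of freedom), with Benjamini-Hochberg adjustment over 13155 genes. Alternatives were quantile, median and normexp (offset 50) settings, the deposited matrix, other probe filters and summaries, an intensity trend, array weights, the 4 arrays alone, the replicate number as a block and leaving out each array. Arrays give no read depth, and their number limits the precision.

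Named genes are the targeted and gate genes, the 12 highest and 12 lowest called differences among genes above background on all 4 arrays with separated replicates, the 4 largest lower bounds each way, list members with the smallest adjusted p (up to 6), the largest opposing one and those with replicates over 2 log2 units apart, and lineage master factors. Other members called and chromosomal neighbours are named beside the rule. Some genes are not reported here. Members, lists and tests were chosen with earlier results of these data known. The procedure was tested on simulated data. Those data had the same spread in every group, unlike the arrays here, so they do not show the error rate of these calls. Promoters were matched by symbol. Figures were drawn with matplotlib.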

Additional observations from a re-analysis of the deposited data

Results flagged for a closer look

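Xist was not tested, because it was above background on 1 array only, and was seen there at a log2 level of 1.31, on Nr4a-TKO replicate 2. Both Xist probes were well above background on that array and 0 of 2 on each of the other 7 arrays. Uty, a Y-linked gene, was at -1.18 and -2.11 in Nr4a-TKO, against -1.37 and -1.19 in Foxp3-KO, and lowest on the same array. Kdm5d, also Y-linked, was at -2.74 and -3.24 in Nr4a-TKO, against -3.27 and -2.44 in Foxp3-KO, and lowest on Foxp3-KO replicate 1.

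Probes without a gene symbol were left out of the comparison. Of 27655 such probes 10943 passed the same filter, and the same limma fit, at an adjusted p under 0.05, called 482 (4.4%) at least 2-fold higher in Nr4a-TKO and 774 (7.07%) at least 2-fold lower. Among genes with a symbol the order was the other way round, with 1005 higher and 577 lower. What these probes read was not analysed here.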

How the results depend on the processing

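In all 15 alternatives, 0 of the called genes named here changed direction. In every called gene the groups did not overlap, so leaving out 1 array could not turn its direction, and this count is no further support. Of 181 called genes named here, 93 kept their call throughout, and 85 lost it with the 4 arrays compared fitted alone. The calls of 2492 genes higher and 2115 lower became 638 and 463 (485 and 341 at least 2-fold) with the 4 arrays compared fitted alone, and 1583 and 1252 with weights by group. Median scaling gave 1358 lower, and no filter on dim probes 5030 lower. Normexp gave 329 at least 2-fold lower, and only genes above background on all 4 arrays 669 at least 2-fold higher. Leaving out 1 array gave 1131 to 2840 higher, 957 to 2533 lower, 597 to 1405 at least 2-fold higher and 468 to 701 at least 2-fold lower. Quantile normalization, the deposited matrix, the mean of all probes and an intensity trend left all 4 counts within 1.5 times. With the mean of all probes, 4 named genes lost their call, Rora, Ccnb1, Septin8 and Irf1. The cause of these shifts was not tested.

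Same-numbered replicates share only a number in the labels, with 2 pairs and a correlation of their deviations of 0.29 over genes. With the replicate number as a block, 2335 genes were called higher and 1889 lower, 1047 and 563 at least 2-fold, and 6 named genes lost their call.

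With 2 arrays per group, dim genes and genes whose Foxp3-KO replicates differ are the least certain. Slide row, genotype and sort gate cannot be told apart.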
